A study of Mus musculus with 12 samples.

Results

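The cytotoxic and CD8 genes are 10 transcripts of killer lymphocytes, measured here in mouse regulatory T cells (Tregs) by RNA sequencing: the granzymes Gzma, Gzmb and Gzmk, the pore former Prf1, the granule protein gene Nkg7, the coreceptor chains Cd8a and Cd8b1, the interleukin-12 receptor chain Il12rb2, the death ligand Fasl and the chemokine Ccl5. They were chosen by name because most of them are high in a single library, the library 1 of mutant nTregs, so their levels in that library are a description and no finding. All 10 were matched among the 49671 genes counted, and all 10 passed the filter on low counts. The study held 12 libraries in 4 groups of 3, all from C57BL/6 mice aged 8 weeks. Mutant nTregs were Tregs sorted fresh from mice labelled Gclc mutant (libraries 1, 2 and 4), and WT nTregs were the same cells from wild-type mice (libraries 1, 2 and 3). Mutant iTregs (libraries 1, 2 and 4) and WT iTregs (libraries 1, 2 and 3) had been made in vitro by differentiating naive CD4+ T cells of mutant and wild-type mice. Gclc encodes the catalytic subunit of the enzyme that makes the first, rate-limiting product of glutathione synthesis. The labels do not say what drives the Gclc mutation, which part of the gene it removes or how nTregs were gated. Nor do they say whether replicate libraries stand for separate mice or cultures, so p-values measure the spread between libraries, which may be technical.

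Cytotoxic lymphocytes, chiefly CD8+ T cells and natural killer (NK) cells, kill by releasing granules that hold perforin and granzymes: perforin opens the membrane of the target and granzymes, a family of serine proteases, enter and start cell death. Interleukin-12, read through the receptor chains IL12RB1 and IL12RB2 and the factor STAT4, favours this programme together with the T-box factors T-bet (Tbx21) and Eomes. Some activated Tregs also use granzyme B, so Gzmb alone does not mark a CD8+ T cell, whereas Cd8a and Cd8b1 are normally silenced in CD4+ T cells.

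The members lie on 7 chromosomes of GRCm38, and some are neighbours. Gzma (chr13:113093825-113100979) and Gzmk (chr13:113171608-113225908) are both on the minus strand of chromosome 13 and 70.6 kb apart. Cd8a (chr6:71373427-71379173) and Cd8b1 (chr6:71322788-71337494) are both on the plus strand of chromosome 6 and 35.9 kb apart. Gzmb (chr14:56258856-56262260) lies 24.2 kb from Gzmc on chromosome 14. Reads that aligned to several places were counted at each, so the values of the granzymes, a family of near relatives, are uncertain to the extent that reads were shared.

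Promoter windows of 250 bases before to 50 bases after the start site (RefSeq, GRCm38.p6) were found for 8 of the 10 members. Motifs of RUNX, T-box and STAT factors, which act in this programme, and of AP-1 were searched on both strands: TGTGGT (the RUNX core), GGTGTGA (T-box), TTCNNNGAA (STAT) and TGANTCA (AP-1). The windows of Gzmb, Nkg7 and Il12rb2 are shown because Gzmb and Il12rb2 were the members with sizeable counts that passed the test in both kinds of Treg, while Nkg7 passed in nTregs and its effect differed between the kinds. Capitals mark the motif matches, read 5′ to 3′ along the gene, and a RUNX core on the opposite strand reads ACCACA.
Gzmb promoter, chr14:56262285-56262584 (minus strand): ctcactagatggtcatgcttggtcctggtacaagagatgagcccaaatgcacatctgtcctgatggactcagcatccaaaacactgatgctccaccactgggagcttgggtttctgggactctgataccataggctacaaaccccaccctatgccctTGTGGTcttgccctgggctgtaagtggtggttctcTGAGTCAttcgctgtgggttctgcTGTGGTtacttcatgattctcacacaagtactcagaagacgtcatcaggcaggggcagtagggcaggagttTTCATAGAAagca
Nkg7 promoter, chr7:43436888-43437187 (plus strand): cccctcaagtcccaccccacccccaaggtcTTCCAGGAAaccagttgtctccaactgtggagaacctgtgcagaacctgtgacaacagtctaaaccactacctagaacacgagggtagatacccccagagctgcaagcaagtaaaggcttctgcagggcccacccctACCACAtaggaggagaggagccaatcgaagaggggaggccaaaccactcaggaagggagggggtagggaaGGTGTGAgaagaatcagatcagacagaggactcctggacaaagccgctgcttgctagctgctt
Il12rb2 promoter, chr6:67376139-67376438 (minus strand): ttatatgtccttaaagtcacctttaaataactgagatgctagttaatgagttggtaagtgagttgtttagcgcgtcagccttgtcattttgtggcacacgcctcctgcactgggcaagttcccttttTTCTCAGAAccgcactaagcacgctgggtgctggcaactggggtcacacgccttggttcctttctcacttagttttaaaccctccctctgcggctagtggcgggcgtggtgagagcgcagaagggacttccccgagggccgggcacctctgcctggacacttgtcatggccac
The Gzmb window held RUNX cores with first bases at -93 and -34 from the start site, an AP-1 motif at -58 and a STAT motif at 37, none of which overlap. The Nkg7 window held a STAT motif at -220, a RUNX core at -83 and a T-box motif at -13. The Il12rb2 window held a STAT motif at -123. The RUNX core was found in 4 of the 8 members' windows (Gzma, Gzmb, Nkg7 and Prf1), against 16.8% of 32851 windows of the same length. The STAT motif was found in 3 of 8 (Gzmb, Il12rb2 and Nkg7) against 8.3%, the T-box motif in 2 of 8 (Gzmk and Nkg7) against 3.98%, and the AP-1 motif in 1 of 8 (Gzmb) against 7.81%. These are matches of letters in chosen genes, and binding was not measured.

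Library totals ranged over 28707579 to 39886130 counts. Levels are given as CPM, counts scaled to TMM library sizes. Gclc, the targeted gene, was at 45.8, 41.7 and 43.2 CPM in mutant nTregs, against 78.7, 79.0 and 70.8 CPM in WT nTregs, and at 18.8, 21.0 and 19.0 CPM in mutant iTregs, against 56.5, 53.2 and 51.9 CPM in WT iTregs, so every mutant library lay below every WT library of its kind. The Treg marker Foxp3 was present in all libraries, at 135.3, 180.7 and 217.5 CPM in mutant nTregs, against 610.5, 563.7 and 558.9 CPM in WT nTregs. It was at 106.8, 96.4 and 75.5 CPM in mutant iTregs, against 300.4, 286.9 and 291.4 CPM in WT iTregs. Cd4 was at 414.7 to 520.3 CPM in mutant nTregs, against 472.0 to 514.1 CPM in WT nTregs, with its lowest level in the mutant library 1. The mutant nTreg libraries differed from each other more than those of any other group (chi-square per degree of freedom 32.67, against 8.53 in WT nTregs, 16.13 in mutant iTregs and 9.32 in WT iTregs), and library 1 stood apart for the genes described here. Because the members were chosen on library 1, it was left out of the tests the results rest on. These used the other 11 libraries with edgeR's quasi-likelihood test and Benjamini-Hochberg adjustment over all tested genes.

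In nTregs, 8 of the 10 cytotoxic and CD8 genes were higher in the mutant libraries 2 and 4 than in WT, without library 1: Gzma, Gzmb, Gzmk, Nkg7, Cd8a, Cd8b1, Il12rb2 and Ccl5. Prf1 and Fasl did not pass. Gzmk entered this test only through its counts in mutant nTregs. Of all 18387 genes tested in this comparison, 18.3% were higher in the mutant libraries and 29.5% passed in either direction. The median log2 fold change was 1.49 over the 10 members and 0.06 over all genes tested. For the same 8 members, both mutant libraries lay above every WT library, which held for 30.5% of all genes tested. In bulk RNA, more cells of a kind and more RNA per cell cannot be told apart.

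Among the granzymes, Gzmk had the largest difference. Gzmk was at 81.8, 6.91 and 9.77 CPM in mutant nTreg libraries 1, 2 and 4, against 0.407, 0.202 and 0.093 CPM in WT nTregs. WT nTregs thus held only 21 Gzmk counts in all 3 libraries together, while every mutant library held a clear signal. Without library 1, Gzmk rose by 5.18 ± 0.38 (log2, SE; edgeR adjusted p = 6.34e-05), and by 5.77 when WT library 1 was also left out. Gzmk passed the filter on low counts only through mutant nTregs, where it is high. Its counts were 12, 6 and 3 in WT nTregs, and iTregs had none. The call for Gzmk is therefore given as a description. Gzma, a tryptase-like granzyme, was at 220.1, 15.9 and 5.75 CPM in mutant nTregs, against 3.29, 2.32 and 1.36 CPM in WT nTregs. All 3 mutant libraries were above the WT libraries, with library 4 close to them and library 1 far above. Gzma was higher by 2.27 ± 0.45 without library 1 (edgeR adjusted p = 0.00666). Gzmb, the granzyme that cleaves and activates caspases, was at 585.3, 56.0 and 37.2 CPM in mutant nTregs, against 14.3, 16.4 and 9.36 CPM in WT nTregs. The groups did not overlap, and Gzmb rose by 1.84 ± 0.39 without library 1 (edgeR adjusted p = 0.00446). Both calls rested on the mutant library 2: with library 4 alone on the mutant side, Gzma was 1.32 (edgeR adjusted p = 0.07) and Gzmb 1.49 (edgeR adjusted p = 0.0581).

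Prf1, which encodes perforin, behaved differently outside library 1. It was at 45.3, 3.63 and 3.89 CPM in mutant nTregs, against 4.07, 3.40 and 3.16 CPM in WT nTregs. The mutant libraries 2 and 4 lay within the WT range. The log2 fold change without library 1 was 0.11 ± 0.23 and did not pass (edgeR adjusted p = 0.742). Nkg7, whose product sits in granule membranes and takes part in their release, was at 190.5, 40.9 and 37.9 CPM in mutant nTregs, against 14.5, 13.5 and 10.9 CPM in WT nTregs. Libraries 2 and 4 were close to each other and well above WT. Nkg7 rose by 1.64 ± 0.17 without library 1 (edgeR adjusted p = 6.28e-05).

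Both CD8 coreceptor genes were higher in mutant nTregs. Cd8a, the chain found in both CD8 dimers, was at 219.2, 19.1 and 27.2 CPM in mutant nTregs, against 3.70, 4.38 and 6.36 CPM in WT nTregs. It rose by 2.29 ± 0.24 without library 1 (edgeR adjusted p = 5.94e-05). Cd8b1, the partner chain of the alpha-beta dimer, was at 129.6, 17.9 and 24.8 CPM in mutant nTregs, against 10.7, 9.47 and 12.1 CPM in WT nTregs. It rose by 1.01 ± 0.14 (edgeR adjusted p = 0.00027). For both chains library 4 was above library 2, the reverse of the order seen for Gzma and Gzmb.

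The remaining members are a receptor, a death ligand and a chemokine. Il12rb2 was at 88.0, 8.17 and 3.74 CPM in mutant nTregs, against 3.63, 2.49 and 1.18 CPM in WT nTregs, so library 4 was only just above the highest WT library. It passed at 1.35 ± 0.41 without library 1 (edgeR adjusted p = 0.0263). The call was lost without mutant library 2 (0.64, edgeR adjusted p = 0.398), without WT library 2 (edgeR adjusted p = 0.0637), without WT library 3 (0.95, edgeR adjusted p = 0.0919) and with DESeq2 (adjusted p = 0.0513). Fasl, which binds the death receptor Fas, was at 26.8, 5.27 and 4.62 CPM in mutant nTregs, against 4.68, 4.68 and 3.91 CPM in WT nTregs. Apart from library 1 its groups overlapped, and the fold change of 0.20 ± 0.17 did not pass (edgeR adjusted p = 0.404). Ccl5, a chemokine that attracts T cells and monocytes, was at 42.2, 29.1 and 34.2 CPM in mutant nTregs, against 12.4, 17.0 and 15.9 CPM in WT nTregs. It was the member that library 1 raised least, and it rose by 1.10 ± 0.15 without that library (edgeR adjusted p = 0.000573).

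**Figure D1:**
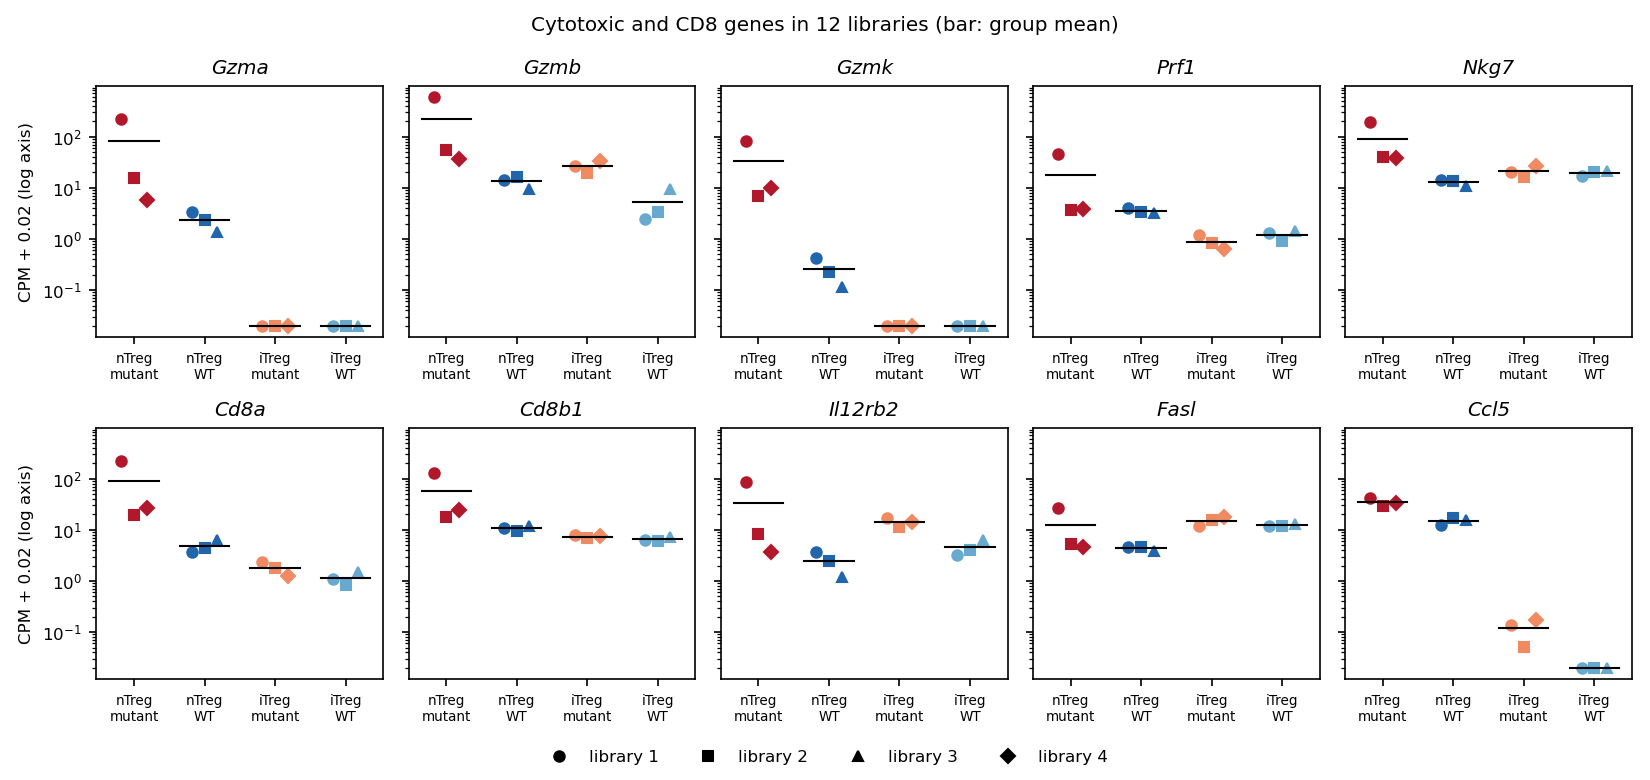
Level of each of the 10 genes in each of the 12 libraries, as CPM plus 0.02 on a log axis. The groups run from mutant nTregs to WT nTregs, mutant iTregs and WT iTregs, each point is 1 library with its number as marker shape, and bars are group means. All 10 genes have their highest point in mutant nTreg library 1, and Gzma and Gzmk sit at the floor in all iTreg libraries.

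With library 1 included, fold changes were larger for every member and ranged over 1.22 ± 0.17 (Ccl5) to 7.13 ± 1.26 (Gzmk) on the log2 scale (SE). All 10 passed in that fit, in which 19.3% of 17977 tested genes were higher in mutant nTregs (34.9% passed in either direction), but the members were chosen on that library and the count is given as a description. Every member was at its highest in library 1 among all 12 libraries. The ratio of library 1 to the mean of libraries 2 and 4 was 20.3 for Gzma, 14.8 for Il12rb2, 12.6 for Gzmb, 12 for Prf1, 9.81 for Gzmk and 9.46 for Cd8a. It was 6.07 for Cd8b1, 5.42 for Fasl, 4.84 for Nkg7 and 1.33 for Ccl5. The members therefore fell into those high in library 1 alone (Prf1 and Fasl), those above every WT library in all 3 mutant nTreg libraries and much higher in library 1 (the granzymes, Nkg7, the CD8 chains and Il12rb2), and Ccl5, above WT to a like extent in all 3. Il12rb2 in library 4 was above WT by a small margin only (3.74 CPM, against 3.63 CPM in WT library 1), and with library 4 alone Gzma, Gzmb and Il12rb2 did not pass.

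Relative to each other, the members did not keep a fixed ratio across the mutant nTreg libraries. The excess of a gene is its level in a mutant library minus the WT mean, here divided by the excess of Cd8a, which was 214.4, 14.3 and 22.4 CPM in libraries 1, 2 and 4. Cd8b1 (0.555, 0.497 and 0.629) and Gzmk (0.381, 0.466 and 0.426) varied less relative to Cd8a than the other members did, but not within their ranges over the WT library subtracted. Cd8b1 ran over 0.552 to 0.559 in library 1 and 0.454 to 0.569 in library 2, but 0.60 to 0.673 in library 4. Gzmk ran over 0.378 to 0.384 in library 1, below its 0.421 to 0.533 in library 2 and 0.398 to 0.464 in library 4. Gzma (1.02, 0.949 and 0.153), Gzmb (2.67, 2.97 and 1.07) and Il12rb2 (0.399, 0.40 and 0.0584) had like ratios in libraries 1 and 2 and a lower one in library 4. Prf1 per Cd8a was 0.195 in library 1 but 0.00578 and 0.0156 in libraries 2 and 4, and Fasl was 0.105, 0.0591 and 0.00895. Ccl5 ran the other way, at 0.126 in library 1 against 0.979 and 0.854 in libraries 2 and 4, and Nkg7 per Cd8a was 0.829, 1.95 and 1.12. Where the excess was small, these ratios depended on which WT library was subtracted. Il12rb2 in library 4 ran over 0.00472 to 0.123, Prf1 in library 2 over -0.0287 to 0.0364 and Fasl in library 4 over -0.00254 to 0.0344. Fasl in library 2 ran over 0.0381 to 0.107 and reached the 0.103 to 0.108 of library 1, so these libraries cannot be told apart for Fasl. Gzma in library 4 ran over 0.105 to 0.21, and Ccl5 in library 1 over 0.117 to 0.138.

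**Figure D2:**
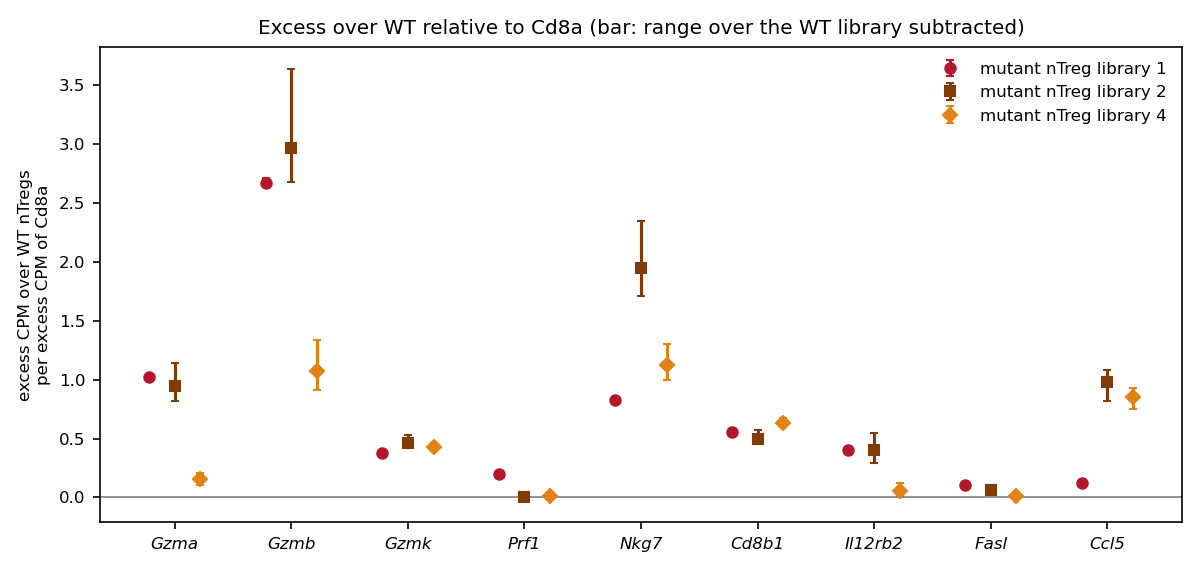
Excess of each gene over the WT nTreg mean divided by the excess of Cd8a, for mutant nTreg libraries 1, 2 and 4. Bars give the range when each WT library is subtracted in turn. Cd8b1 and Gzmk sit near the same height in all 3 libraries, while Prf1 is at 0.195 in library 1 and near 0 in the other two, and Ccl5 is lowest in library 1.

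The make-up of the CD8 reads also differed between groups. Cd8b1 made up 37.2%, 48.3% and 47.7% of the summed Cd8a and Cd8b1 counts in mutant nTreg libraries 1, 2 and 4, against 74.4%, 68.4% and 65.5% in WT nTregs. The exact binomial 95% interval was 45.8% to 50.7% in library 2 and 45.3% to 50.1% in library 4. That of the lowest WT nTreg library was 61.5% to 69.3%. In library 1, on which the members were chosen, it was 36.3% to 38.1% and is a description. These intervals cover counting error only. The share was 77.2%, 79.6% and 85.6% in mutant iTregs, against 85.7%, 87.9% and 83.0% in WT iTregs, and those groups overlapped. Mutant nTregs thus held the lowest Cd8b1 share of the 4 groups in each of their libraries. Both chains had counts in every WT library, though Cd8a had only 29 to 54 counts per library in WT iTregs.

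**Figure D3:**
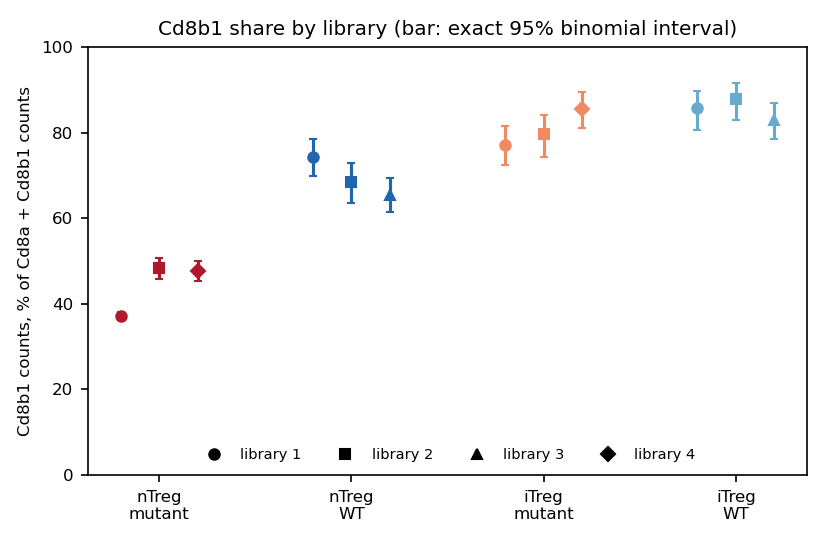
Share of Cd8b1 in the summed counts of Cd8a and Cd8b1 in each library, in percent, with exact 95% binomial intervals, for mutant nTregs, WT nTregs, mutant iTregs and WT iTregs. The mutant nTreg libraries lie between 37.2% and 48.3%, below all others.

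In iTregs the pattern was narrower: Gzmb and Il12rb2 were higher in mutant cells, and most other members did not pass. Of the 8 members with any count in iTregs, 3 were higher in mutants. Of all genes tested, 17.2% were higher and 34% passed in either direction. The third was Ccl5, on 10 counts. The median log2 fold change of the 8 members was 0.44, with Ccl5 at its lower bound, beside 0.00 over all genes.

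Gzmb was at 26.2, 19.6 and 33.7 CPM in mutant iTregs, against 2.42, 3.41 and 9.65 CPM in WT iTregs. The groups did not overlap, although WT library 3 was well above the other WT libraries. Gzmb rose by 2.31 ± 0.40 (log2, SE; edgeR adjusted p = 0.00105), and by 3.17 without WT iTreg library 3. Il12rb2 was at 16.7, 11.3 and 14.1 CPM in mutant iTregs, against 3.26, 3.98 and 6.32 CPM in WT iTregs, again without overlap. It rose by 1.59 ± 0.34 (edgeR adjusted p = 0.0038). Both calls depended on leaving out the nTreg library 1, since the 4 groups share an estimate of the spread: with all 12 libraries the fold changes were 2.35 and 1.63, with edgeR adjusted p = 0.0731 for Gzmb and 0.187 for Il12rb2. When iTregs were fitted alone, both members passed.

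Ccl5 was at 0.118, 0.0314 and 0.152 CPM in mutant iTregs and had no count in WT iTregs. The 10 counts gave an at least 3.55-fold higher level in mutant iTregs against a floor of 3 counts over the WT group (edgeR adjusted p = 0.0182). Gzma and Gzmk had 0 counts in all 6 iTreg libraries, which allows levels of up to 0.0303 CPM in mutant iTregs and 0.0285 CPM in WT iTregs. No change in these granzymes was detectable in iTregs at this depth.

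The CD8 chains, Nkg7, Prf1 and Fasl did not pass in iTregs. Cd8a was at 2.29, 1.76 and 1.24 CPM in mutant iTregs, against 1.05, 0.83 and 1.46 CPM in WT iTregs (log2 fold change 0.62 ± 0.31, edgeR adjusted p = 0.142). It overlapped between groups, and it passed with the replicate number as a block (edgeR adjusted p = 0.0455) and without the filter on low counts (edgeR adjusted p = 0.0157). Cd8b1 was at 7.77, 6.87 and 7.41 CPM in mutant iTregs, against 6.26, 6.01 and 7.11 CPM in WT iTregs (0.14 ± 0.13, edgeR adjusted p = 0.448). Nkg7 was at 20.8, 16.4 and 26.7 CPM in mutant iTregs, against 16.9, 20.6 and 21.5 CPM in WT iTregs (0.07 ± 0.16, edgeR adjusted p = 0.763). These groups overlapped throughout. Prf1 was at 0.607 to 1.18 CPM in mutant iTregs, against 0.887 to 1.41 CPM in WT iTregs (-0.50 ± 0.25, edgeR adjusted p = 0.15). Fasl was at 12.1 to 17.7 CPM in mutant iTregs, against 11.6 to 12.9 CPM in WT iTregs (0.26 ± 0.13, edgeR adjusted p = 0.149), and passed at 0.44 when mutant iTreg library 1 was left out (edgeR adjusted p = 0.0147).

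The effect of the mutation differed between nTregs and iTregs for 3 members, by the test of the difference itself, again without nTreg library 1. Nkg7 differed by 1.56 ± 0.24 (log2, nTreg effect minus iTreg effect, SE; edgeR adjusted p = 0.00196). Cd8a differed by 1.67 ± 0.39 (edgeR adjusted p = 0.0143) and Cd8b1 by 0.87 ± 0.19 (edgeR adjusted p = 0.0106). Over all genes, 11.7% differed in this direction, 5.82% in the other and 17.5% in either, a split that turned over when some single libraries were left out. The Cd8a difference was 1.33 without WT iTreg library 3 (edgeR adjusted p = 0.0561). For the members raised in both kinds of Treg no difference passed: it was -0.47 ± 0.56 for Gzmb (edgeR adjusted p = 0.612) and -0.24 ± 0.54 for Il12rb2 (edgeR adjusted p = 0.817). For Gzmb this too turned on WT iTreg library 3, without which the nTreg effect was lower than the iTreg effect (-1.38, edgeR adjusted p = 0.0403). Prf1 (0.62 ± 0.34, edgeR adjusted p = 0.235) and Fasl (-0.06 ± 0.21, edgeR adjusted p = 0.887) did not pass, and Gzma and Gzmk could not be compared because iTregs had no count.

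**Figure D4:**
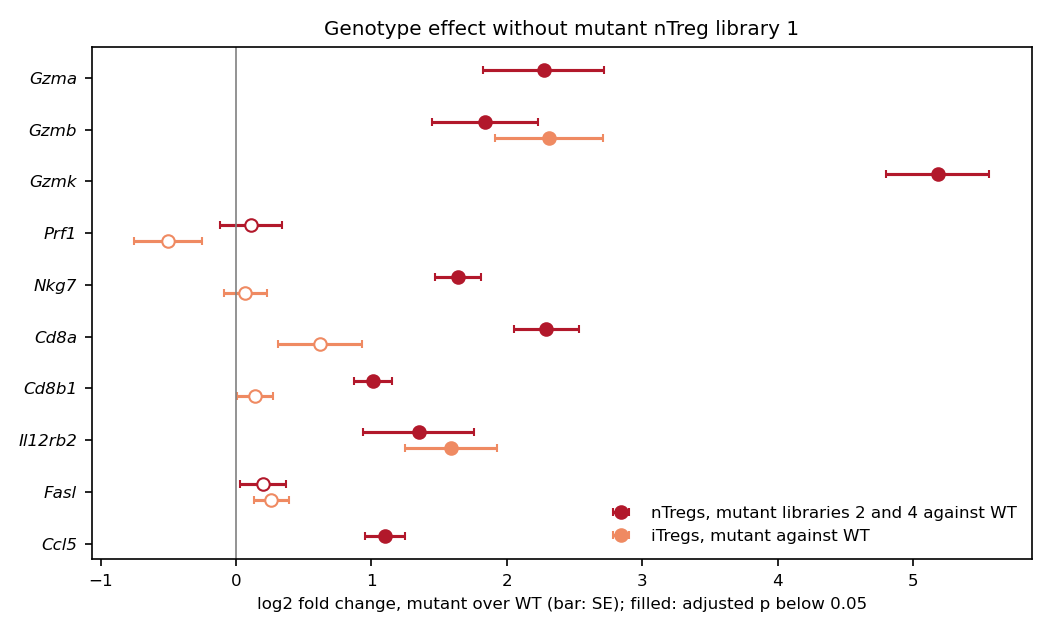
Log2 fold change of mutant over WT with its SE for nTregs (mutant libraries 2 and 4 against WT) and iTregs, from the fit of 11 libraries. Filled points passed an adjusted p of 0.05, and Gzma, Gzmk and Ccl5 have no iTreg point because at least 1 iTreg group had no count. The 8 filled nTreg points lie between 1.01 and 5.18, and the filled iTreg points are Gzmb at 2.31 and Il12rb2 at 1.59.

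Without any mutation, the culture-induced cells carried less of most of these transcripts than fresh ones. In WT iTregs against WT nTregs, 7 of 10 members were lower, 2 were higher and 1 did not pass, beside 37.5% lower and 34.7% higher over all genes (72.2% in all). Markers of several other cell types were lower in the same comparison. This held for 8 of 8 tested NK cell markers and 7 of 7 gamma delta and innate-like T cell markers. It also held for 7 of 7 B cell markers and 6 of 7 tested myeloid markers. Of 9 CD8 T cell markers other than the members, 4 were lower, 3 higher and 2 did not pass. Their sum was 112.6 to 157.8 CPM in WT iTregs, against 79.1 to 91.3 CPM in WT nTregs. The higher sum rested on Xcl1 alone, at 59.9, 61.4 and 86.9 CPM in WT iTregs, against 4.17, 3.81 and 4.56 CPM in WT nTregs. The NK cell markers summed to 1.14 to 1.49 CPM in WT iTregs, against 34.0 to 49.2 CPM in WT nTregs, and their part in the members' levels was not tested. Ccl5 was at least 531.4-fold lower, Gzma at least 80.7-fold lower and Gzmk at least 8.07-fold lower in WT iTregs, each against a floor of 3 counts over the group. The log2 fold change, WT iTregs over WT nTregs, was -2.11 ± 0.28 for Cd8a (SE; edgeR adjusted p = 1.77e-05) and -1.57 ± 0.22 for Prf1 (edgeR adjusted p = 3.71e-05). It was -1.36 ± 0.40 for Gzmb (edgeR adjusted p = 0.00866) and -0.74 ± 0.13 for Cd8b1 (edgeR adjusted p = 0.00024). Fasl was higher in WT iTregs by 1.46 ± 0.14 (edgeR adjusted p = 1.36e-06) and Nkg7 by 0.60 ± 0.16 (edgeR adjusted p = 0.00533). Il12rb2 was at 0.90 ± 0.39 and missed the threshold (edgeR adjusted p = 0.0513). The Gzmb value was -2.19 without WT iTreg library 3. With nTreg library 1 in the fit, which widens the shared spread, 1 of the 7 members counted in every group passed, against 6 without it.

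Per length, as CPM per kilobase of exon, the order of the members differed between groups. In mutant nTregs the mean level ran from Gzmb (159.5 ± 219.4, SD, n = 3) through Nkg7 (98.2 ± 95.5) and Gzma (91.8 ± 137.7) to Fasl (6.32 ± 6.52), and apart from Ccl5 the SDs, set by library 1, were as large as the means or nearly so. No neighbours in that order differed beyond their spread. In WT nTregs Ccl5 (15.7 ± 2.52) and Nkg7 (14.2 ± 2.02) led, not apart from each other, followed by Gzmb (9.42 ± 2.55), Cd8b1 (7.25 ± 0.875), Gzma (2.65 ± 1.10) and Fasl (2.28 ± 0.231), and Gzmk was lowest (0.169 ± 0.115). The spreads of Gzmb and Cd8b1 overlapped there, as did those of Gzma and Fasl. In mutant iTregs Nkg7 (23.3 ± 5.63) and Gzmb (18.7 ± 4.97) led with overlapping spreads, above Fasl (7.76 ± 1.46). In WT iTregs Nkg7 (21.5 ± 2.70) stood above Fasl (6.29 ± 0.332), Cd8b1 (4.35 ± 0.388) and Gzmb (3.64 ± 2.76), whose spread covered that of Cd8b1.

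Other genes of the cytotoxic pathway were read from lists. Of the 7 remaining granzymes, 2 were tested, and Gzmc rose in mutant nTregs without library 1 (1.18 ± 0.24, edgeR adjusted p = 0.00336), while Gzmm did not pass (0.14 ± 0.29, edgeR adjusted p = 0.755). Neither passed in iTregs. Over all genes tested, 18.3% were higher and 11.2% lower in mutant nTregs without library 1. Among 15 genes of granule packing and release, 6 were higher and 2 lower in that comparison. The higher ones included Srgn, the proteoglycan that packs granzymes (0.28 ± 0.06), the cystatin Cst7 (0.67 ± 0.13) and Serpinb9, an inhibitor of granzyme B (0.71 ± 0.17, edgeR adjusted p = 0.00724). The lower ones were Lyst (-0.55 ± 0.07), a regulator of lysosome-related granules, and Sytl2 (-1.25 ± 0.17), which tethers granules at the membrane. In iTregs 7 of the 15 were higher in mutants, with Srgn (0.43 ± 0.05), Ctsc (0.45 ± 0.06), the protease that activates granzymes, and Cst7 (0.73 ± 0.13) among them, and 4 were lower, with Ctsw (-1.13 ± 0.15) among them. Over all genes in iTregs, 17.2% were higher and 16.8% lower in mutants. The median of the granule list was 0.19 in nTregs and 0.17 in iTregs.

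Around Il12rb2, 8 of 16 genes of interleukin-12 and type 1 signalling were higher in mutant nTregs without library 1, beside 18.3% of all genes. The median log2 fold change of the 16 was 0.60, against 0.06 over all genes. Among the 8 were the partner receptor chain Il12rb1 (0.52 ± 0.11, edgeR adjusted p = 0.00493) and Tbx21 (1.12 ± 0.18, edgeR adjusted p = 0.000822). The interleukin-18 receptor chain Il18r1 (0.93 ± 0.15, edgeR adjusted p = 0.000738) and Id2 (0.68 ± 0.14, edgeR adjusted p = 0.00405) were also among them. Tbx21 was at 64.6, 11.4 and 10.2 CPM in mutant nTregs, against 6.14, 5.39 and 3.72 CPM in WT nTregs. Ifng, the hallmark cytokine of the type 1 programme, was at 72.8, 5.61 and 4.35 CPM in mutant nTregs, against 3.56, 2.73 and 2.11 CPM in WT nTregs, and did not pass without library 1 (0.87 ± 0.38, edgeR adjusted p = 0.11). Ifng was thus far highest in library 1. Its libraries 2 and 4 lay above every WT library, as held for 30.5% of all genes, whereas those of Prf1 lay within the WT range. In iTregs 7 of the 16 were higher in mutants and 1, the kinase gene Tyk2, was lower (median 0.40). Over all genes there, 17.2% were higher and 16.8% lower. Il12rb1 rose by 0.61 ± 0.10 (edgeR adjusted p = 0.00103), Stat4, which carries the interleukin-12 signal, by 0.42 ± 0.07 (edgeR adjusted p = 0.00128), and Il18r1 by 0.77 ± 0.14 (edgeR adjusted p = 0.00128). Ifng was at 1.32, 0.345 and 0.516 CPM in mutant iTregs, against 0.0898, 0 and 0.162 CPM in WT iTregs (3.01 ± 0.70, edgeR adjusted p = 0.00579). Tbx21 (0.07 ± 0.25, edgeR adjusted p = 0.877) and Eomes (0.53 ± 0.37, edgeR adjusted p = 0.301) did not pass in iTregs.

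Beside Ccl5, 5 of 8 genes of T cell chemokines and their receptors were higher in mutant nTregs without library 1, and 3 of 8 in mutant iTregs (median log2 fold changes 1.26 and 1.08). Ccl3, a chemokine of the same CC family, was at 7.96, 1.69 and 0.791 CPM in mutant nTregs, against 0.102, 0.202 and 0.093 CPM in WT nTregs (3.28 ± 0.64 without library 1, edgeR adjusted p = 0.00264). It was at 16.1, 11.8 and 25.8 CPM in mutant iTregs, against 4.46, 5.73 and 5.81 CPM in WT iTregs (1.70 ± 0.27, edgeR adjusted p = 0.000666), so its groups did not overlap in either kind of cell. Ccl4 rose in mutant nTregs (1.78 ± 0.47, edgeR adjusted p = 0.0135) and mutant iTregs (0.67 ± 0.23, edgeR adjusted p = 0.0415). Of 8 genes of the other death ligands and the Fas pathway, 2 were higher and 1 lower in mutant nTregs without library 1 (median 0.01). In mutant iTregs 3 were higher and 1 lower (median 0.17). Over all genes, 18.3% were higher and 11.2% lower in these nTregs, and 17.2% higher and 16.8% lower in iTregs. Tnfrsf10b, a death receptor, and the cytokine gene Lta were higher in both. Fas itself did not pass in nTregs (-0.07 ± 0.12, edgeR adjusted p = 0.672) or iTregs (0.22 ± 0.10, edgeR adjusted p = 0.114).

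Markers of other cell types were read beside these results. The summed level of 9 CD8 T cell markers other than the members (Klrd1, Klrk1, Klrc1, Klrc2, Crtam, Cd160, Eomes, Runx3 and Xcl1, the last 3 also on the lists above) was 475.7, 134.9 and 112.5 CPM in mutant nTreg libraries 1, 2 and 4, against 79.1 to 91.3 CPM in WT nTregs. All 9 were highest in library 1 among the mutant nTregs, as were 48.9% of 11615 genes that averaged 5 CPM or more in these libraries. Without library 1, 5 of the 9 rose (median 0.65), among them Klrc1 (0.95 ± 0.22, edgeR adjusted p = 0.00648) and Runx3 (0.51 ± 0.15, edgeR adjusted p = 0.0251), a factor that represses Cd4 in CD8+ T cells. In iTregs the sum was 126.9 to 186.1 CPM in mutants, against 112.6 to 157.8 CPM in WT, with Xcl1 the largest part in every library. Klrc1 (1.35 ± 0.20, edgeR adjusted p = 0.000538) and Klrc2 (1.38 ± 0.24, edgeR adjusted p = 0.00106) rose there. Klrc1 and Klrc2 encode receptors of NK cells and CD8+ T cells, so this list and its sum do not separate these cells. Over all genes, 18.3% were higher in mutant nTregs without library 1 and 17.2% in mutant iTregs.

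For NK cells the sum of 10 markers was 70.9, 70.3 and 41.8 CPM in mutant nTreg libraries 1, 2 and 4, against 34.0 to 49.2 CPM in WT nTregs, and 4 of the 10 were highest in library 1. None of the 8 tested passed in nTregs without library 1 by edgeR, 3 had an unadjusted p below 0.05, and 1 passed by DESeq2 (median log2 fold change 0.53). Ncr1, the most selective of them, was at 15, 10.8 and 4.26 CPM in mutant nTregs, against 3.97, 4.45 and 2.20 CPM in WT nTregs (1.13 ± 0.40 without library 1, edgeR adjusted p = 0.0668). Per excess of Cd8a, Ncr1 was 0.0534, 0.506 and 0.0322 in libraries 1, 2 and 4, so its excess relative to Cd8a was higher in library 2 than in library 1. Klrb1c was at 9.07, 11.9 and 5.93 CPM in mutant nTregs, against 6.99, 6.94 and 5.30 CPM in WT nTregs. In iTregs Ncr1 had no count in any library, the sum was 2.18 to 2.28 CPM in mutants against 1.14 to 1.49 CPM in WT, and 4 of the 10 were at 0 in all 6 libraries. Klri2 (1.30 ± 0.25, edgeR adjusted p = 0.0022) and Tyrobp passed there, the last at 0.0314 to 0.265 CPM in mutant iTregs and no count in WT iTregs.

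The lists of gamma delta, B cell and CD4 and Treg markers were at their lowest in library 1 among mutant nTregs, while the myeloid list was highest there. The 7 matched gamma delta and innate-like T cell markers summed to 47.5, 134.9 and 66.0 CPM in mutant nTregs, against 97.9 to 108.2 CPM in WT nTregs, and 0 of 7 were highest in library 1. Without library 1, 1 rose (Tcrg-C2) and 2 fell (Sox13 and Zbtb16). The 7 B cell markers summed to 192.7, 421.1 and 267.3 CPM in mutant nTregs, against 301.9 to 472.8 CPM in WT nTregs, with 0 of 7 highest in library 1 and 1, Cr2, lower. In iTregs they summed to 3.04 to 3.73 CPM in mutants, against 2.48 to 4.0 CPM in WT. The 9 myeloid markers summed to 80.6, 49.0 and 52.3 CPM in mutant nTregs, against 36.0 to 37.4 CPM in WT nTregs, with 3 highest in library 1. Most of the peak was Itgax, an integrin gene, at 61.7, 9.36 and 7.12 CPM in mutant nTregs, against 2.95, 4.01 and 3.57 CPM in WT nTregs, whereas Lyz2 was at 4.8, 24.2 and 33.4 CPM in mutant nTregs, against 16.2, 16.2 and 15.8 CPM in WT nTregs. Both rose without library 1. In iTregs the myeloid markers summed to 2.34 to 3.53 CPM in mutants, against 6.24 to 8.17 CPM in WT. Most of that was Itgam, at 2.32, 2.92 and 1.61 CPM in mutant iTregs, against 7.69, 6.84 and 5.35 CPM in WT iTregs. Itgam was the 1 myeloid marker that passed there (-1.58 ± 0.21, edgeR adjusted p = 0.000275). The 10 CD4 and Treg markers summed to 2512.3, 3048.1 and 3298.2 CPM in mutant nTregs, against 3558.5 to 3817.3 CPM in WT nTregs, with library 1 lowest. The CD8 silencing factor gene Zbtb7b was at 50.2, 73.3 and 69.3 CPM in mutant nTregs, against 86.3, 90.1 and 107.2 CPM in WT nTregs (-0.38 ± 0.09 without library 1, edgeR adjusted p = 0.0105), and Foxp3 fell by 1.51 there. Cd4 did not pass (0.09 ± 0.07, edgeR adjusted p = 0.352). In iTregs Foxp3 was lower by -1.70 ± 0.10 (edgeR adjusted p = 8.48e-06) and Zbtb7b by -0.29 ± 0.09 (edgeR adjusted p = 0.0207), and 2 of the 10 were higher and 4 lower. Of 10 pan T cell markers, 4 were lower in mutant nTregs without library 1 and 5 in mutant iTregs, where 1, Cd2, was higher. Over all genes, 18.3% were higher and 11.2% lower in mutant nTregs without library 1. In mutant iTregs 17.2% were higher and 16.8% lower. The part of any other cell type in the members' levels was not tested.

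**Figure D5:**
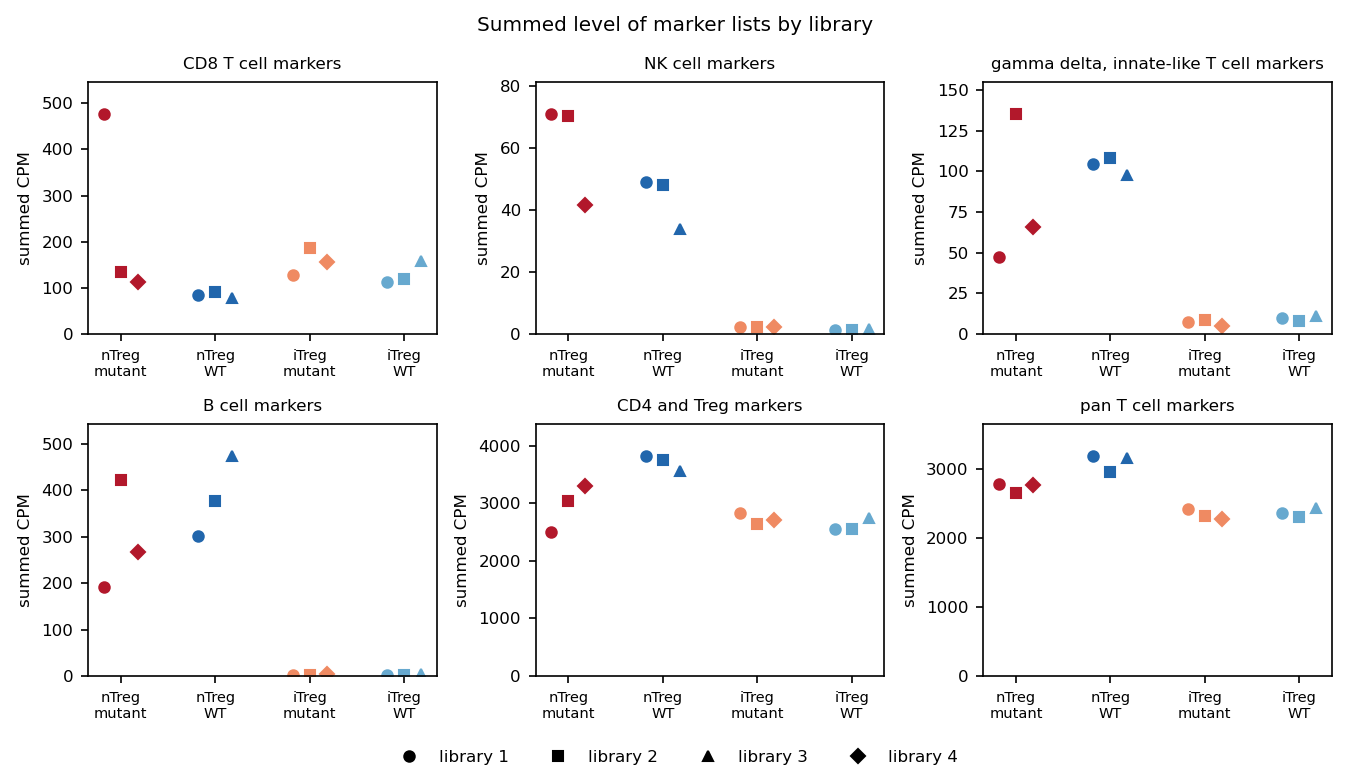
Summed CPM of 6 marker lists in each library, on linear axes from 0, for mutant nTregs, WT nTregs, mutant iTregs and WT iTregs. CD8 T cell markers are highest in mutant nTreg library 1, at 475.7 CPM, where B cell, gamma delta and CD4 and Treg markers are at their lowest among nTregs. NK, gamma delta and B cell markers are near 0 in iTregs.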

How the data were processed

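Poly(A) RNA of 12 mouse Treg libraries was sequenced. Per the labels' protocols, a NucleoSpin RNA kit and the TruSeq Stranded mRNA kit were used. The deposited values are integer counts per gene, which the authors made with featureCounts 1.5.2 at Ensembl exons of GRCm38, per the file headers, reverse-stranded, with multi-mapping reads counted at each alignment. Reads were aligned to mm10 with STAR 2.5.2b, per the submitters' processing notes. Trimming is not given in the sources used here.

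Counts were tested with edgeR 4.0.16 (R 4.3.3): TMM scaling, filterByExpr, 4 group means, quasi-likelihood F-test, two-sided, adjusted p below 0.05 by Benjamini-Hochberg over all genes tested. Tests of members used 11 libraries (7 residual degrees of freedom). CPM come from all 12. The SE comes from the F statistic. Where a group had no count, a fold is a bound against 3 counts, for counting error only. The fits were tested on simulated data, and DESeq2 1.42.0 was an alternative. The members, lists and tests were chosen with earlier results of these data known. Genes were named by rule: all members, up to 4 passing genes per list with the smallest adjusted p, defining markers whatever their values, and the 5 genes nearest to Cd8a, Gzmb and Ccl5. Further genes were named after their values were seen. A listed gene is not reported here. Of 49671 genes, 49326 had a symbol.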

Additional observations from a re-analysis of the deposited data

Results flagged for a closer look

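The effect of the mutation differed between nTregs (mutant libraries 2 and 4 against WT) and iTregs (mutant against WT) for 3 members, by edgeR's test of the difference itself. The nTreg effect minus the iTreg effect on the log2 scale was 1.56 for Nkg7, 1.67 for Cd8a and 0.87 for Cd8b1. Over all genes tested, 17.5% differed in either direction and 11.7% in this one. The split between directions turned over when some single libraries were left out. For each of these 3 members both mutant nTreg libraries used lay above all WT nTreg libraries, as held for 30.5% of all genes tested, while mutant and WT iTregs overlapped. The Cd8a difference no longer passed without WT iTreg library 3, at 1.33.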

How the results depend on the processing

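The 7 members that could be compared in both kinds of Treg, and all 10 in nTregs, were recomputed with DESeq2, RLE scaling, scaling by totals, other filters on low counts (none, or 1 CPM in 3 libraries), the compared groups or all 12 libraries in the fit, a replicate block and each library left out. Of 691 alternative values for members and counts, none reversed a called direction. Among member values 533 were counted as unchanged, 14 lost a call, 8 gained it, and 9, in the description of all nTreg libraries, moved without library 1. In that description, unchanged meant the same direction and a value within 1 SE. Elsewhere it meant the same side of the threshold, so a change of sign between values that did not pass was included. Values without an adjusted p were also counted as unchanged. In the nTreg comparison without library 1, genes passing numbered 5424, but 3397 with the replicate block and 2643 to 4619 with each further library left out, and members passing numbered 8, and 5 to 8 with each library left out. The 5 were left without mutant library 2, where the lone mutant library is assumed to vary like the other groups. With all 12 libraries, members passing were 0 in iTregs (2 of 7 otherwise) and 1 in WT iTregs against WT nTregs (6 of 7 otherwise). Genes passing the test of the difference numbered 3216, and 1272 to 4446 with each library left out (1272 without mutant nTreg library 2, 1973 without WT nTreg library 2). Under scaling by totals the share of passing genes that were higher in mutants was 65.4% with all nTreg libraries (55.4% otherwise) and 40.5% in iTregs (50.5% otherwise). For the difference it was 82.3% under scaling by totals, 54.7% under RLE scaling and 66.7% in the fit reported, and 44.4% to 69.1% with each library left out (44.4% without WT nTreg library 1, 44.9% without mutant iTreg library 2). The cause was not tested. Same-numbered libraries did not pair (r of their deviations -0.06 to 0.05), and the replicate block changed the call of 1 member, Cd8a in iTregs, while 8 members passed in nTregs. Depth limits Gzma, Gzmk and Ccl5 in iTregs.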

Other observations

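Beyond the members, few genes with a mean of 5 CPM or more in mutant nTregs followed library 1 in size. Of 11615 genes that averaged 5 CPM or more in mutant nTregs, 5675 (48.9%) were highest in library 1 among the mutant nTregs, but 32 (0.276%) were at least 4-fold above the mean of libraries 2 and 4. Of these 32, 9 were members, 5 were on the CD8 T cell marker list, 5 on another list and 13 on none. The mean included library 1, so genes such as Esm1 passed the 5 CPM minimum through that library. Genes with a lower mean, such as Ccl3 (6.42-fold) and Gzmm (5.24-fold), were left out. This selection was made after the values were seen and is a description of these libraries. The group held the cytokine gene Ifng (14.6-fold), the calcium sensor gene Ncald (14.3-fold), the inhibitory receptor gene Klrc1 (12-fold), the surface protein gene Ly6c2 (10.3-fold), Esm1 (9.61-fold) and Havcr2 (4.89-fold), which encodes the checkpoint receptor TIM-3. Ly6c2 differed from most in its level in the other libraries. It was at 158.0 CPM in library 1, 14.7 CPM in library 2 and 16.1 CPM in library 4 of mutant nTregs, against 26.0 to 29.8 CPM in WT nTregs, so libraries 2 and 4 lay below WT. Esm1 was at 13.3, 1.28 and 1.49 CPM in mutant nTregs, against 0.0674 to 0.17 CPM in WT nTregs, and thus lay above WT in all 3.

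The genes whose levels ran most like a member were ranked over 9530 genes by Pearson's r of log2(CPM + 1) over the 12 libraries, as a description, since the libraries share a split into nTregs and iTregs and the peak of library 1. For Cd8a they were Cd8b1 (r = 0.983, and 0.988 over the 11 libraries without library 1), Ermn (0.977 and 0.943), Snx10 (0.975 and 0.944), Rrbp1 (0.971 and 0.925) and Bak1 (0.969 and 0.931). For Gzmb they were Cfl1 (0.971 and 0.925), Etv6 (0.969 and 0.949), Arpc4 (0.967 and 0.913), Klrc2 (0.963 and 0.94) and Surf4 (0.96 and 0.939). For Ccl5 they were Dnase1l3, Nlrp1b, Cysltr2, Gjb2 and Dscam, all at 0.995 or 0.996, genes near 0 in iTregs as Ccl5 is. No cytotoxic gene was among the 5 nearest to Ccl5.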
